A study of Mus musculus with 8 samples.

Results

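The genes described here encode the 5 subunits of the transcription factor NF-kappaB (Nfkb1, Nfkb2, Rela, Relb and Rel) and 5 of the proteins that restrain or reshape it (Nfkbia, Nfkbie, Nfkbiz, Bcl3 and Tnfaip3). They were taken by symbol from the count tables, and all 10 of the 10 were found among the 25526 gene symbols listed. The series measured RNA from aortic tissue of 4 male mice aged 2 years and 4 male mice aged 12 weeks by bulk RNA sequencing, to set aneurysms whose growth had stopped against growing ones. Every mouse of both ages was heterozygous for Fbn1 C1041G, a missense allele of fibrillin-1 that models Marfan syndrome, so no library from a mouse without the allele enters these comparisons. The allele is carried in the germ line and age is the only labelled difference, with no statement in the labels of the aortic segment or of any shared litter or batch.

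NF-kappaB acts as dimers of the Rel homology proteins. In resting cells IkappaB proteins such as those made from Nfkbia and Nfkbie hold the dimers in the cytoplasm. Receptors for TNF, interleukin-1 and microbial products activate the IkappaB kinase (IKK) complex, which marks IkappaB for destruction and frees mainly the Rela and Nfkb1 dimer, the canonical arm. In the noncanonical arm the kinase encoded by Map3k14 drives processing of the Nfkb2 precursor and releases its dimer with Relb. Several of the genes that limit the response are themselves NF-kappaB targets, which forms a negative feedback loop. In the vessel wall the pathway is known for inducing adhesion molecules and chemokines in endothelium, smooth muscle and leukocytes.

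Sequences at the start sites of these genes are shown because NF-kappaB dimers bind a 10-base element, the kappaB motif. RefSeq promoter windows of build GRCm38.p6, with 250 bases before and 50 from the start site on, were matched by symbol for 7 of the 10 genes, with no window for Nfkb1, Relb and Nfkbiz. Both strands were searched for the kappaB consensus. Of the 7 genes 6 held at least 1 match, against 9.55% of the 27025 genes in the table. A gene with more than 1 window counted if any of them held a match. Several of the 10 genes are known NF-kappaB targets, so their share is no independent measure. The matched bases are in capitals, and the sequence is given on the strand of the gene. In Nfkb2, Rel and Bcl3 a capital block holds matches that overlap or that read on both strands, and further matches in Nfkb2 and Tnfaip3 are not printed. The windows are Nfkb2 at chr19:46304688-46304736 (+), Rel at chr11:23771041-23771071 (-), Nfkbia at chr12:55492657-55492686 (-), Nfkbie at chr17:45555584-45555613 (+), Tnfaip3 at chr10:19015403-19015432 (-) and Bcl3 at chr7:19822734-19822763 (-).
Nfkb2: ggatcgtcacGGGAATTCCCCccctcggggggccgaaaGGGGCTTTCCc
Rel: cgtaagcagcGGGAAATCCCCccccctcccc
Nfkbia: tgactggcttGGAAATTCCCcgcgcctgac
Nfkbie: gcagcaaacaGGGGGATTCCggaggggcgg
Tnfaip3: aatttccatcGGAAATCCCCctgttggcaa
Bcl3: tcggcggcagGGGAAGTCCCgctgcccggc
The Rela window held no match. A match is a description of these letters and not evidence of binding.

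Library totals lay between 16251986 and 33880690 counts, and both of these extremes are 2-year libraries. Before any result, 2 libraries stood apart in mitochondrial counts or heart muscle markers. In 2 years replicate 3, 10.3% of counts were mitochondrial, against 4.14% to 7.33% in the other 7. In 12 weeks replicate 3 the summed heart muscle markers were at 1024 CPM, against 82.22 to 287.2 CPM in the other 7. CPM are counts divided by the TMM-scaled library total and multiplied by 1000000. Other libraries stood apart on other markers, and only these 2 were left out together. Red blood cell markers summed to 7930 CPM in 2 years replicate 2, against 442.1 to 2474 CPM in the other 7. Endothelial markers summed to 377.2 CPM in 12 weeks replicate 1, against 722.5 to 793.7 CPM in the other 12-week libraries. The smooth muscle markers that define the aortic media were abundant in every library, at 16470 to 24920 CPM summed at 2 years and 28250 to 33890 CPM at 12 weeks, and 5 of 7 fell. Leukocyte markers moved the other way, and their part in the results below was not tested. Of 12 macrophage markers 11 rose and none was at 0 in any library, with sums of 2272 to 2893 CPM at 2 years and 624.4 to 871.4 CPM at 12 weeks. All 8 markers of T and NK cells rose (52.84 to 88.57 against 6.691 to 17.6 CPM), as did all 8 of B and plasma cells (240.8 to 1235 against 2.271 to 3.662 CPM), of which Mzb1 was at 0 in the 12-week libraries. Of 5 neutrophil markers 3 passed the low-count filter and rose, with sums over the 5 of 8.194 to 45.48 CPM at 2 years and 2.774 to 3.65 CPM at 12 weeks; 1 was at 0 in 2 years replicate 4 and 3 were at 0 in 12 weeks replicate 1. All 5 red blood cell markers rose and none was at 0 in any library, with sums of 1776 to 7930 CPM at 2 years and 442.1 to 723.7 CPM at 12 weeks. Bulk RNA cannot tell more cells of a type from more RNA per cell.

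Of the 10 genes, 7 rose at 2 years, 1 fell and 2 did not pass the test. Those that rose were the inhibitors Nfkbie and Nfkbia, the nuclear IkappaB relative Bcl3, the subunits Relb, Rel and Nfkb2, and the brake Tnfaip3. The gene that fell was Nfkbiz. The call rule was an adjusted p below 0.05 in edgeR's quasi-likelihood test over all 13978 genes that passed its low-count filter, and all 10 genes passed that filter. By the same rule 25.8% of all tested genes rose, 26.2% fell and 52.0% changed in either direction. The median log2 fold change, 2 years over 12 weeks, was 0.51 over the 10 genes and -0.01 over all genes tested. Libraries of the 2 ages did not overlap in CPM for 6 genes that were higher and 1 that was lower at 2 years, where 24.3% and 25.3% of all tested genes separate in these ways, 49.6% in all. Without 2 years replicate 3 and 12 weeks replicate 3, 6 genes rose and 1 fell.

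**Figure D1:**
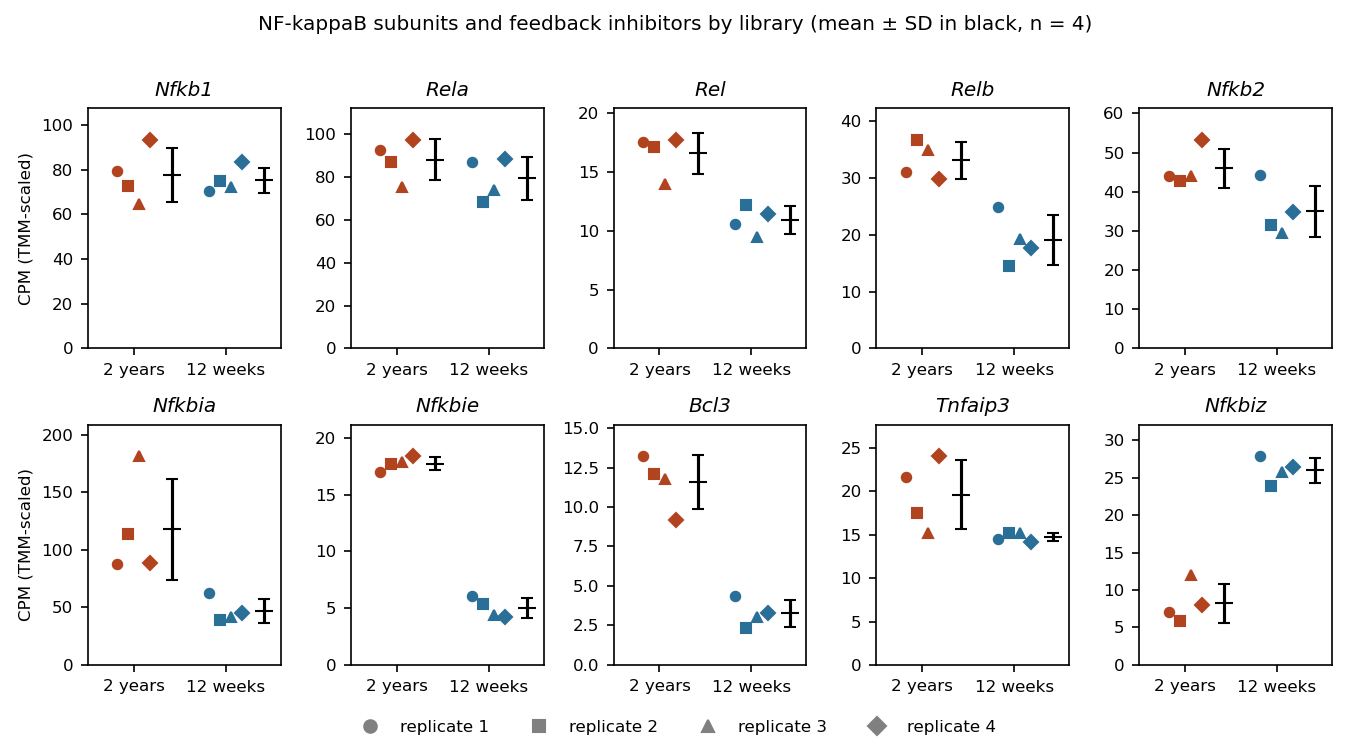
CPM (y axis, from 0, TMM-scaled) of each gene in every library, with 2 years left of 12 weeks, symbols for replicates and the mean ± SD of 4 libraries in black. Nfkbie, Bcl3, Nfkbia, Relb and Rel lie higher in all 4 libraries at 2 years, Nfkbiz lies lower in all 4, and Nfkb1 and Rela overlap.

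Neither canonical subunit passed the test. Rela encodes the p65 subunit, which carries the transactivation domain of the canonical dimer. Its level was 92.5, 86.7, 75.2 and 97.2 CPM in 2 years replicates 1 to 4 and 87.0, 68.2, 73.7 and 88.5 CPM in 12 weeks replicates 1 to 4. The ranges overlapped, and the log2 fold change was 0.15 (SE 0.13, 95% interval -0.14 to 0.44, edgeR adjusted p = 0.371). Nfkb1 encodes a precursor that is processed to the p50 subunit. It stood at 79.5, 72.6, 64.6 and 93.4 CPM in 2 years replicates 1 to 4 and at 70.5, 74.8, 72.4 and 83.25 CPM in 12 weeks replicates 1 to 4. The 2-year libraries reached both below and above the 12-week ones, with a log2 fold change of 0.04 (SE 0.13, 95% interval -0.25 to 0.34, edgeR adjusted p = 0.798). A rise up to about the upper bound of these intervals, or a fall down to about the lower bound, is within what the data allow.

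Relb, the transcriptionally active partner in the noncanonical dimer, rose 1.73-fold. It had 31.1, 36.8, 34.9 and 29.8 CPM in 2 years replicates 1 to 4, against 24.9, 14.4, 19.3 and 17.8 CPM in 12 weeks replicates 1 to 4. Every 2-year library was higher than every 12-week library, and 12 weeks replicate 1 came nearest (log2 fold change 0.79, SE 0.16, edgeR adjusted p = 0.00209). Leaving out any 1 library kept the call, with values of 0.68 to 0.94.

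Nfkb2, the precursor of the p52 subunit that pairs with Relb, passed the threshold narrowly. Its level was 44.0, 42.65, 43.9 and 53.3 CPM in 2 years replicates 1 to 4 and 44.2, 31.5, 29.6 and 34.8 CPM in 12 weeks replicates 1 to 4. The groups overlapped through 12 weeks replicate 1, which exceeded 3 of the 2-year libraries. The log2 fold change was 0.39 (SE 0.15, edgeR adjusted p = 0.042). The call was lost without 12 weeks replicate 2, 3 or 4 or without 2 years replicate 1 or 4, with values of 0.31 to 0.41 and adjusted p of 0.0618 to 0.132, and it was also lost without 2 years replicate 3 and 12 weeks replicate 3 together (0.35, adjusted p = 0.115).

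Rel encodes c-Rel, a subunit best known from lymphocytes and myeloid cells, and it rose 1.52-fold. Its level was 17.5, 17.1, 13.98 and 17.7 CPM in 2 years replicates 1 to 4, against 10.5, 12.2, 9.43 and 11.4 CPM in 12 weeks replicates 1 to 4. The groups did not overlap, although 2 years replicate 3 lay well below the other 3 libraries of its age (log2 fold change 0.61, SE 0.14, edgeR adjusted p = 0.00391). Without that library the value was 0.68.

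Log2 fold changes ran from -1.67 to 1.83 among the genes that restrain or reshape NF-kappaB, while the highest among the subunits was the 0.79 of Relb. With an offset for transcript length and GC share, described below, Rel was the highest subunit at 1.08, above Nfkbia at 0.84. Nfkbie encodes IkappaB epsilon, a cytoplasmic inhibitor of Rela and c-Rel dimers, and had the smallest p of the 10 genes. It stood at 16.98, 17.7, 17.9 and 18.4 CPM in 2 years replicates 1 to 4, against 6.03, 5.39, 4.40 and 4.18 CPM in 12 weeks replicates 1 to 4. The 4 libraries at 2 years were nearly level with each other, at 17.7 ± 0.578 CPM, and those at 12 weeks averaged 5.00 ± 0.865 CPM (SD, n = 4 each), a 3.54-fold rise (log2 fold change 1.83, SE 0.15, edgeR adjusted p = 5.42e-06).

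Bcl3, an IkappaB relative that acts in the nucleus with dimers of the p50 and p52 subunits, rose 3.55-fold. Its level was 13.2, 12.1, 11.8 and 9.17 CPM in 2 years replicates 1 to 4, against 4.37, 2.35, 3.03 and 3.29 CPM in 12 weeks replicates 1 to 4. All 2-year libraries were more than double the highest 12-week library (log2 fold change 1.83, SE 0.21, edgeR adjusted p = 4.73e-05). The gene rested on few reads at 12 weeks, with 324 counts over the group, against 1191 at 2 years.

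Nfkbia encodes IkappaB alpha, the main inhibitor that is resynthesised after each round of activation. It stood at 87.5, 113, 181 and 88.4 CPM in 2 years replicates 1 to 4, against 62.4, 39.3, 41.3 and 45.3 CPM in 12 weeks replicates 1 to 4. The groups did not overlap, and the spread at 2 years came mainly from replicate 3, the library with the highest mitochondrial share. That library also had the highest fibroblast marker sum of its age, at 7462 CPM, against 3037 to 3893 CPM. Its macrophage sum of 2893 CPM was the highest of its age and its smooth muscle sum of 16470 CPM the lowest. The part of these traits in its Nfkbia level was not tested. The Nfkbia mean was 118 ± 44.0 CPM at 2 years and 47.1 ± 10.5 CPM at 12 weeks (SD, n = 4 each), a 2.50-fold rise (log2 fold change 1.32, SE 0.24, edgeR adjusted p = 0.00108). Without 2 years replicate 3 the log2 fold change was 1.03, and without 2 years replicate 3 and 12 weeks replicate 3 it was 0.98, each still called.

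Tnfaip3 encodes A20, an enzyme that edits ubiquitin chains on upstream adaptors and so switches the pathway off. Its level was 21.6, 17.5, 15.2 and 24.03 CPM in 2 years replicates 1 to 4 and 14.5, 15.2, 15.2 and 14.2 CPM in 12 weeks replicates 1 to 4. The 12-week libraries lay close together, and the lowest 2-year library, replicate 3, came within 0.1 CPM of them. The log2 fold change was 0.41 (SE 0.15, edgeR adjusted p = 0.0418). Leaving out any 1 of the 12-week libraries or 2 years replicate 1 or 4 ended the call, with values of 0.30 to 0.42 and adjusted p of 0.0731 to 0.127.

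Nfkbiz was the only 1 of the 10 genes that fell. It encodes IkappaB zeta, an inducible nuclear protein that works with the p50 subunit as a coactivator of secondary response genes. Its level was 7.05, 5.84, 12.0 and 7.99 CPM in 2 years replicates 1 to 4, against 27.9, 23.9, 25.7 and 26.4 CPM in 12 weeks replicates 1 to 4. The highest 2-year library, replicate 3, was less than the lowest 12-week library by over 10 CPM. The mean was 8.21 ± 2.65 CPM at 2 years and 26.0 ± 1.66 CPM at 12 weeks (SD, n = 4 each), a 3.19-fold fall (log2 fold change -1.67, SE 0.20, edgeR adjusted p = 6.08e-05). Both atypical nuclear IkappaB genes of the set thus changed by over 3-fold, Bcl3 upward and Nfkbiz downward.

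**Figure D2:**
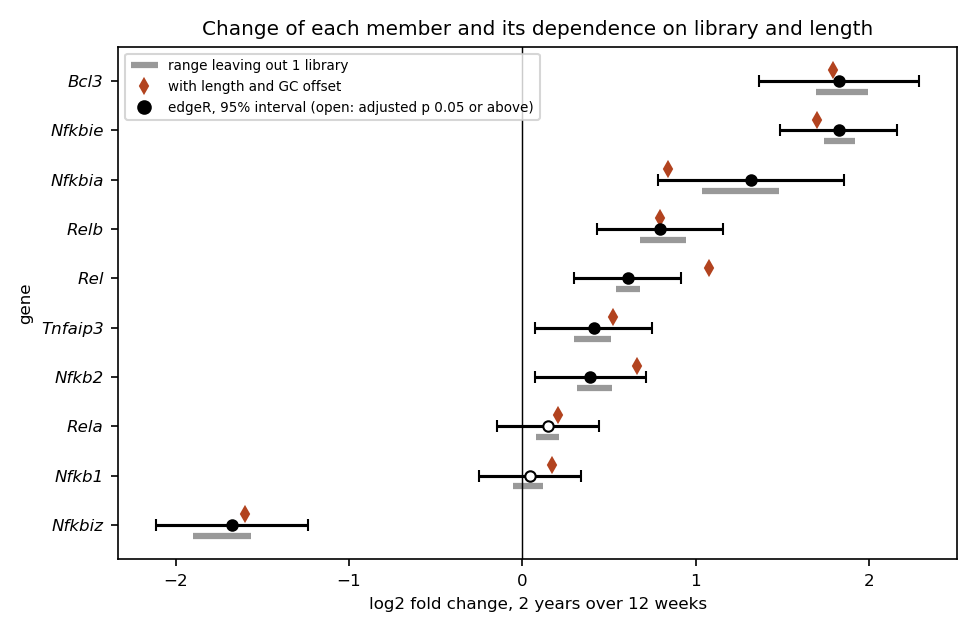
The x axis gives the log2 fold change of each gene (y axis), 2 years over 12 weeks: circles are edgeR values with 95% intervals, filled where the adjusted p is below 0.05, grey bars span the values with 1 library left out and diamonds are values with a transcript length and GC offset. Bcl3 and Nfkbie lie highest at 1.83, Nfkbiz lies at -1.67, and the intervals of Rela and Nfkb1 cross 0.

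Across all genes the change with age depended on transcript length. Each gene's log2 CPM was first centred on its own mean over all libraries. The slope of each library's centred values on log2 length was -0.214 ± 0.104 at 2 years and 0.214 ± 0.0609 at 12 weeks (SD, n = 4 each, two-sided exact permutation p = 0.0286, the smallest that 70 assignments allow). The mirrored signs follow from the centring, so only the difference between the ages is informative. Among the 10 genes the transcripts run from 1578 nt for Nfkbia to 7466 nt for Rel. An offset that removes the trend on length and GC share left all 8 calls in place, with Nfkbia at 0.84, Rel at 1.08, Nfkb2 at 0.66, Tnfaip3 at 0.52, Relb at 0.80, Nfkbie at 1.70, Bcl3 at 1.79 and Nfkbiz at -1.60. With it the values of Nfkbia and Rel changed places, the shortest transcript with the lower and the longest with the higher value.

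Levels of different genes were compared as CPM per kilobase of the longest annotated protein-coding transcript. At 2 years Nfkbia stood first at 74.5 ± 27.9 CPM per kb, followed by Rela at 32.4 ± 3.51, Nfkb1 at 18.8 ± 2.96, Relb at 15.01 ± 1.46 and Nfkb2 at 12.0 ± 1.27 CPM per kb (SD, n = 4). Below them came Nfkbie at 7.28 ± 0.237, Bcl3 at 6.25 ± 0.923, Tnfaip3 at 4.43 ± 0.899, Rel at 2.22 ± 0.234 and Nfkbiz at 2.00 ± 0.644 CPM per kb. Neighbours in this order overlapped between libraries from Nfkb1 through Relb to Nfkb2, from Nfkbie through Bcl3 to Tnfaip3, and between Rel and Nfkbiz.

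The order at 12 weeks was different in its lower part. There Nfkbia, at 29.8 ± 6.65 CPM per kb, overlapped Rela at 29.2 ± 3.67, and Nfkb1 followed at 18.3 ± 1.37 CPM per kb (SD, n = 4). Nfkb2 at 9.11 ± 1.69, Relb at 8.65 ± 1.98 and Nfkbiz at 6.31 ± 0.402 CPM per kb overlapped in turn. Tnfaip3 stood apart at 3.33 ± 0.113 CPM per kb, and Nfkbie at 2.05 ± 0.355, Bcl3 at 1.76 ± 0.453 and Rel at 1.46 ± 0.159 CPM per kb overlapped at the bottom. Nfkbiz was thus the last of the 10 genes at 2 years and the sixth at 12 weeks.

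**Figure D3:**
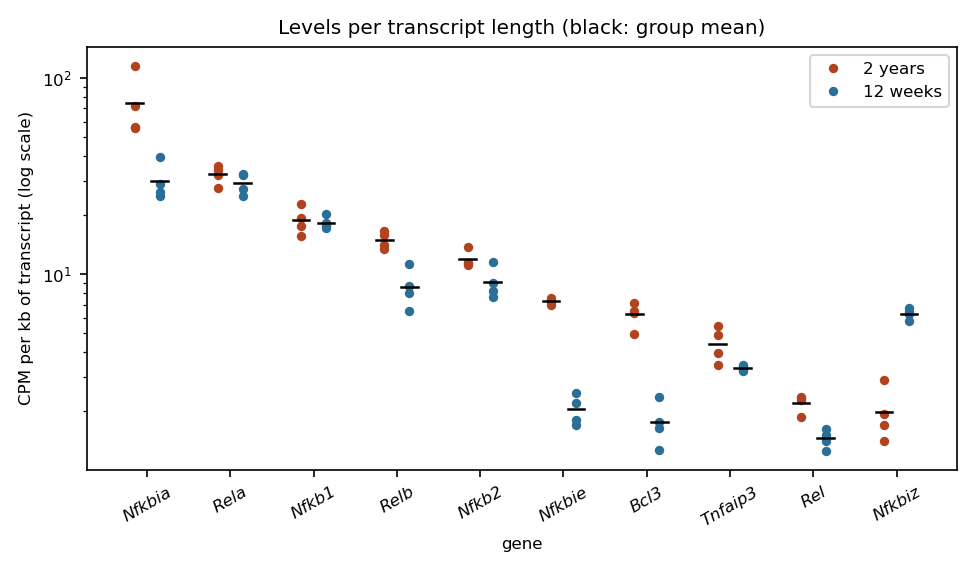
CPM per kb of transcript (y axis, log scale) of the 10 genes (x axis, in the order of the 2-year means), with each library as a point, 2 years left of 12 weeks, and the group mean as a black line. Nfkbia averages 74.5 at 2 years and 29.8 at 12 weeks, and Nfkbiz is the only gene whose 2-year points all lie below its 12-week points.

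Subunit composition was described by each subunit's share of the summed level per kb of the 5 subunit transcripts. Relb made up 17.3%, 20.9%, 21.8% and 15.3% in 2 years replicates 1 to 4, against 15.4%, 11%, 14% and 11.3% in 12 weeks replicates 1 to 4. The Relb share averaged 18.8% at 2 years and 12.9% at 12 weeks, and the groups met, since 2 years replicate 4 lay just under 12 weeks replicate 1. Rela held the largest share in every library, at 38.2% to 41.9% at 2 years and 42.1% to 45.6% at 12 weeks, without overlap. For Nfkb1 the shares were 21.7% to 25.7% at 2 years and 23.3% to 30.5% at 12 weeks, and for Nfkb2 13.9% to 15.8% and 12.3% to 15.7%, with overlap in both. Rel contributed 2.58% to 2.88% at 2 years and 1.92% to 2.74% at 12 weeks. Shares in a library sum to the whole, so a rise of 1 subunit lowers the others.

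**Figure D4:**
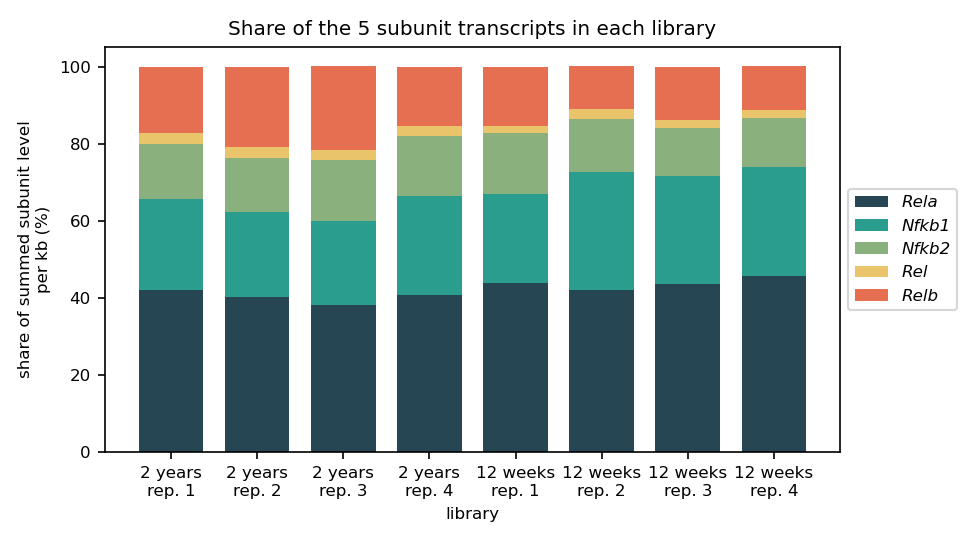
Share (y axis, percent) of each NF-kappaB subunit in the summed level per kb of the 5 subunit transcripts, as stacked bars for every library, 2 years at the left. Relb takes 15.3% to 21.8% at 2 years and 11.0% to 15.4% at 12 weeks, and Rela is the largest part throughout.

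The level of the inhibitor Nfkbia was also set against the subunits. Per kb and without the length and GC offset it was 0.682, 0.903, 1.58 and 0.635 times the summed subunits in 2 years replicates 1 to 4, against 0.539, 0.418, 0.419 and 0.402 times in 12 weeks replicates 1 to 4. The groups did not overlap, and 2 years replicate 3 was again the highest. Nfkbia is the shortest of the 10 transcripts, and with the offset its log2 fold change was 0.84, against 1.08 for Rel, 0.80 for Relb, 0.66 for Nfkb2, 0.21 for Rela and 0.17 for Nfkb1. The ratio itself was not recomputed with the offset. These ratios concern RNA and say nothing of protein, whose amount is set largely by degradation of IkappaB.

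Within each age 1 library was the highest for 6 of the 10 genes, a count that was not tested. Among the 12-week libraries this was replicate 1, which was also the lowest for 1 gene. That library had the highest macrophage sum of its age, at 871.4 CPM, and the lowest endothelial sum, at 377.2 CPM. At 2 years, replicate 4 was the highest for 6 genes and the lowest for 2. Its macrophage sum of 2321 CPM was near the low end of its group, and its neutrophil sum of 8.194 CPM was the lowest. Its T and NK cell sum of 88.57 CPM and its B and plasma cell sum of 1235 CPM were the highest of that age. The part of cell makeup in this variation was not tested.

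Nfkbie, the gene with the smallest p, was set beside all other tested genes by the root mean square difference of log2 CPM over the 8 libraries, after centring each gene on its own mean. The closest were Gna15 (0.0997), Rassf5 (0.11), Pik3r5 (0.113), Inpp5d (0.122) and Tifab (0.13), which means that they differed from Nfkbie by about 0.1 on the log2 scale in a typical library. Among the other 9 genes of the set, Bcl3 was nearest at 0.281, followed by Nfkbia at 0.432 and Relb at 0.552.

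The rest of the pathway was followed in lists ordered from ligands to targets. Of 92 different genes 84 were tested, 40 rose and 14 fell. Over all tested genes 25.8% rose and 26.2% fell, the shares to set beside each list below. Of 9 ligands 6 passed the low-count filter, and these 6 rose, with a median log2 fold change of 4.04. Several had few counts at 12 weeks and passed through their 2-year libraries, so that share is not read as a result; with no filter 7 of the 9 were called higher and the median was 2.71. Il1b, the inflammatory cytokine interleukin-1 beta, averaged 14.2 ± 5.86 CPM at 2 years and 0.409 ± 0.0828 CPM at 12 weeks (SD, n = 4 each, log2 fold change 5.11, SE 0.35, edgeR adjusted p = 1.77e-06, and 4.47 with the length and GC offset). Ltb, a lymphotoxin chain that signals to the noncanonical arm, averaged 9.96 ± 2.86 CPM at 2 years and 0.531 ± 0.35 CPM at 12 weeks (4.23). Tnfsf14 (3.84) and Tnfsf13b, the B cell survival factor BAFF (1.97), also rose. Lta, Cd40lg and Il1a did not pass the filter.

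Of 10 receptors 5 rose and 2 fell, with a median of 0.38, where 25.8% of all tested genes rose and 26.2% fell. With the length and GC offset 6 were higher and 1 lower. With no low-count filter or with the replicate block, 5 were higher and 1 lower. Tnfrsf1b, the second TNF receptor, averaged 86.5 ± 2.21 CPM at 2 years and 27.5 ± 6.49 CPM at 12 weeks (SD, n = 4 each, log2 fold change 1.65, edgeR adjusted p = 1.37e-05). Tlr2, a sensor of bacterial lipoproteins, rose by 1.66 and Cd40, a receptor of B cells and macrophages, by 1.84 on the log2 scale. Tnfrsf11a, which encodes RANK, the receptor of the Tnfsf11 product, fell to 31.3 ± 6.25 CPM at 2 years, against 75.4 ± 7.50 CPM at 12 weeks (-1.27, edgeR adjusted p = 8.46e-05).

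Adaptors beneath the receptors divided, with 6 of 16 higher, 3 lower and a median of 0.11, where 25.8% of all tested genes rose and 26.2% fell. With the length and GC offset 6 were higher and 1 lower, but the 6 were not the same genes. Traf3 (-0.10, adjusted p = 0.578) and Malt1 (-0.40, adjusted p = 0.0864) lost their calls as lower. Tradd (0.27, adjusted p = 0.132) lost its call as higher, and Ripk1 gained one (0.38, adjusted p = 0.00436). Traf1, itself an NF-kappaB target, averaged 8.70 ± 2.31 CPM at 2 years and 1.79 ± 0.363 CPM at 12 weeks (SD, n = 4 each, log2 fold change 2.28, edgeR adjusted p = 3.69e-05). Myd88, the adaptor of Toll-like and interleukin-1 receptors, rose by 0.98, and Bcl10, an adaptor of antigen receptor signalling, rose by 1.08.

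Of 11 genes of the IKK complex and its kinases 7 fell, 0 rose and 4 did not pass the test. Over all tested genes 26.2% fell and 25.8% rose. The median of the list was -0.87 on the log2 scale, or -0.60 with the length and GC offset. With that offset 7 were also lower, but not the same 7 genes: Map3k7 lost its call (-0.09, adjusted p = 0.55) and Tbk1 gained one (-0.50, adjusted p = 0.00319). Chuk and Ikbkb, the catalytic subunits of IKK, averaged 17.2 ± 2.40 and 29.9 ± 5.16 CPM at 2 years, against 32.1 ± 3.10 and 54.6 ± 4.95 CPM at 12 weeks (SD, n = 4 each; log2 fold change -0.90 and -0.87, edgeR adjusted p = 0.000308 and 0.000471). Ikbke, a related kinase of the interferon response, fell to 4.49 ± 0.929 CPM at 2 years, against 17.2 ± 2.77 CPM at 12 weeks (-1.92, edgeR adjusted p = 1.52e-05), and Tab3, an adaptor of the upstream kinase, fell by 0.95. Map3k14, named here after its value was seen because it drives the noncanonical arm, stood at 4.00 ± 1.73 CPM at 2 years and 11.9 ± 1.92 CPM at 12 weeks (-1.57, edgeR adjusted p = 0.00064). Ikbkg, the regulatory subunit of IKK, was at 52.9 ± 10.8 CPM at 2 years and 53.5 ± 3.67 CPM at 12 weeks and did not pass the test (-0.01, 95% interval -0.36 to 0.33, edgeR adjusted p = 0.943).

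Other brakes showed no common direction. Of 14 ubiquitin editors and further inhibitors 4 rose and 2 fell (median 0.01). The share that rose lay near the 25.8% of all tested genes. Under the offset for length and GC the split was 6 higher and 4 lower. Pdlim2, which promotes destruction of nuclear Rela, averaged 104 ± 26.4 CPM at 2 years and 47.7 ± 11.3 CPM at 12 weeks (SD, n = 4 each, log2 fold change 1.12, edgeR adjusted p = 0.00105). Otulin, which removes linear ubiquitin chains, rose by 0.66 but was not called with the offset (0.18, adjusted p = 0.217). Tnip2, a partner of A20, fell by 0.74 and Zc3h12a, an RNase that degrades inflammatory transcripts, fell by 0.78. Of the other IkappaB genes, Nfkbib was called at 0.43 (edgeR adjusted p = 0.0402) and lost the call without any 1 of 12 weeks replicates 2, 3 and 4 and 2 years replicates 1, 2 and 4, and Nfkbid was at 0.48 (adjusted p = 0.314).

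Of 24 genes known as NF-kappaB targets 21 passed the low-count filter. Of these 14 rose and 0 fell, where 25.8% of all tested genes rose and 26.2% fell. Genes with few counts at 12 weeks can pass the filter through their 2-year libraries, so this share is not read as a result. The median of the 21 was 1.44 on the log2 scale. With no filter 15 of the 24 were called higher and 0 lower, also with a median of 1.44. With the length and GC offset 14 were higher and 1 lower: Gadd45b was called at -0.87 (adjusted p = 0.00839) and Irf1 lost its call (0.27, adjusted p = 0.123). Without 2 years replicate 4, 15 were higher and 1 lower. The monocyte chemokine Ccl2 averaged 17.1 ± 5.05 CPM at 2 years and 0.825 ± 0.389 CPM at 12 weeks (SD, n = 4 each, log2 fold change 4.39, edgeR adjusted p = 2.19e-06, and 3.45 with the length and GC offset). Bcl2a1b, a survival gene with near-identical copies and therefore an uncertain count, was at 3.84 (2.90 with the offset), and the T cell chemokine Ccl5 was at 4.70 (3.64 with the offset and 5.32 without 12 weeks replicate 1). The adhesion molecule Vcam1 was at 2.20. Il6 did not pass the low-count filter but ranged from 0.347 to 10.6 CPM at 2 years and from 0 to 0.306 CPM at 12 weeks. Sod2, a textbook target, did not pass the test at 84.9 ± 5.97 CPM at 2 years and 79.3 ± 10.3 CPM at 12 weeks (0.10, edgeR adjusted p = 0.53, called at 0.39 with the offset).

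Of 7 genes linked to the noncanonical arm 5 passed the low-count filter and rose, with a median of 1.97. These are Cxcl13, Ccl19, Ccl21a, Cxcl12 and the ligand Tnfsf13b, which stands in both lists. Over all tested genes 25.8% rose. Genes with few counts at 12 weeks can pass the filter through their 2-year libraries, so this share is not read as a result. With no filter 5 of the 7 were called higher, with a median of 1.96. Cxcl12, a chemokine of stromal cells, averaged 734 ± 172 CPM at 2 years and 233 ± 21.3 CPM at 12 weeks (SD, n = 4 each, log2 fold change 1.66, edgeR adjusted p = 3.12e-05). Ccl19, which attracts cells bearing Ccr7, was at 1.94 (1.13 with the length and GC offset), and Cxcl13 was at 6.64 (5.91 with the offset). Ccl19 has related copies in the mouse genome and its count is uncertain. Ccl21a was at 4.49, but at 3.15 without 2 years replicate 3. It was at 2.91 without 2 years replicate 3 and 12 weeks replicate 3, and was called in each case. Macrophages and lymphocytes express many genes of these lists, and their markers rose in the same libraries.

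**Figure D5:**
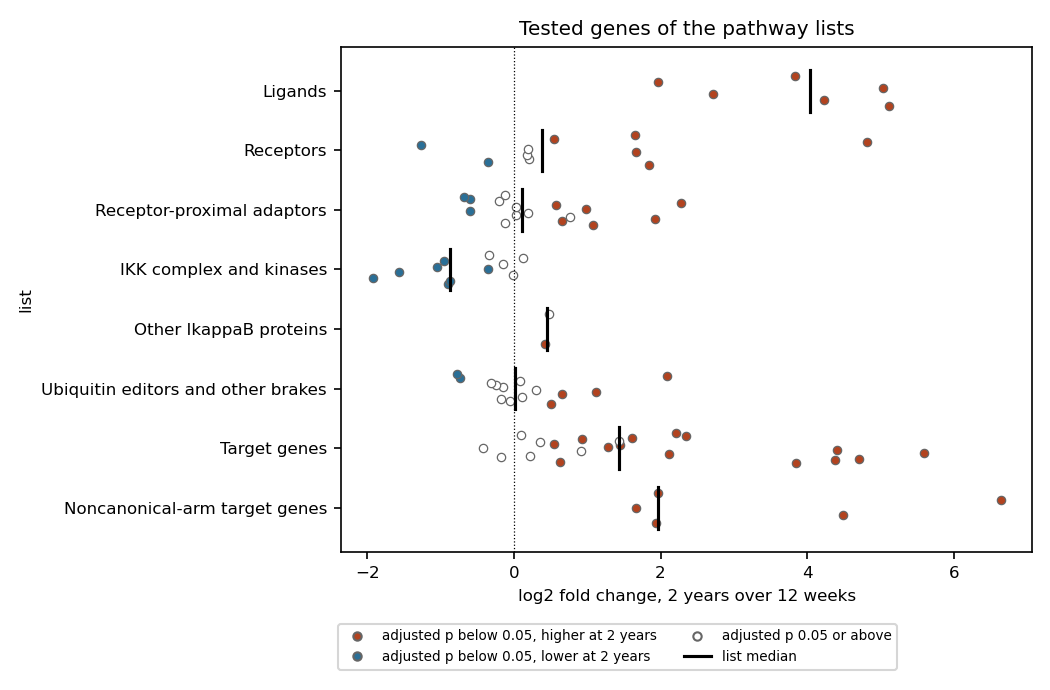
Each point is a tested gene of a pathway list (y axis, ligands at the top and targets at the bottom) at its log2 fold change, 2 years over 12 weeks (x axis), with called genes filled and list medians as black lines. The IKK complex and kinases have 7 genes lower and 0 higher and a median of -0.87, and only genes that passed the low-count filter are drawn.

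Promoter windows of the lists were searched in the same way as those of the 10 genes. A kappaB match stood in 10 of 17 target genes with a window, 4 of 11 ubiquitin editors and brakes, 3 of 13 adaptors, 2 of 9 IKK genes, 2 of 8 receptors, 1 of 8 ligands and 1 of 7 noncanonical-arm targets. Target lists were drawn up from known NF-kappaB genes, so their share is no independent measure.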

How the data were processed

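The authors deposited raw counts per gene symbol for each library, per the file headers and the labels, and the submitters' processing notes name the build GRCm39. For the aligner, counter, annotation and strand handling, the tools are not given in the sources used. Counts were compared with edgeR 4.0.16 in R 4.3.3: filterByExpr, TMM scaling, a robust quasi-likelihood F test with age as the only term and Benjamini-Hochberg adjustment over 13978 genes. Fold changes are 2 years over 12 weeks, SE derive from the F statistic, and log2 CPM uses a prior count of 2. Alternatives used DESeq2 1.42.0, limma 3.58.1 (voom), other filters and left-out libraries. Transcript length and GC share came by symbol from GENCODE M21 (longest protein-coding transcript, 97.4% of tested genes), on an older build. The offset used natural splines with 4 degrees of freedom. In a test on simulated data over 13892 genes for 2 years over 12 weeks, 71% of 2-fold and 92.9% of 4-fold changes were recovered. No library repeats another: chi-square per degree of freedom between libraries of the same age was 22.5 to 145. The members and lists were chosen with earlier results of these data known. Genes outside the 10 were named by rule: per list, up to 4 called genes with the smallest p, or, with no call in the list, the 2 genes of highest mean CPM. Map3k14, Ikbkg, Il6, Sod2, Nfkbid, Ccl21a and the untested ligands were named outside it after their values were seen. So were genes whose call changed with the length and GC offset. A gene that the rule takes is not reported here.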

Additional observations from a re-analysis of the deposited data

Results flagged for a closer look

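In 2 results, 1 library of a group of 4 lay far from the other 3. Nfkb2 was at 53.26 CPM in 2 years replicate 4, while the other 2-year libraries were between 42.65 and 44.02 CPM. Rel was at 13.98 CPM in 2 years replicate 3, while the other 2-year libraries were between 17.1 and 17.71 CPM. Chance marks about 1 group in 20 in this way, and 20 groups were examined. Without 2 years replicate 4, Nfkb2 was at 0.31 on the log2 scale and was not called, and without 2 years replicate 3, Rel was at 0.68 and was called.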

How the results depend on the processing

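Over 16 alternatives the number of genes called ranged from 6091 to 7689, and the number of the 10 genes called was 5 to 7 higher and 1 lower. Relb, Rel, Nfkbia, Nfkbie, Bcl3 and Nfkbiz kept their direction and call under all 16. Of 336 values 308 kept direction and call or, for counts, lay within 1.5 times the reported count, 16 were weaker, 12 moved and 0 reversed. The calls lost were those of Nfkb2 and Tnfaip3, and for them the cause was not tested. Nfkb2 was at 0.39 with no low-count filter, 0.40 with the replicate block and 0.35 without 12 weeks replicate 3 and 2 years replicate 3; with 1 library left out it ranged from 0.31 to 0.52. Tnfaip3 was at 0.41 with no low-count filter and 0.39 with the replicate block, and ranged from 0.30 to 0.51 with 1 library left out. Without 12 weeks replicate 3 and 2 years replicate 3, Tnfaip3 was at 0.53 and still called. Called genes among the other IkappaB genes numbered 0 with no low-count filter, the replicate block, the length and GC offset with or without the block, and without 12 weeks replicate 3 and 2 years replicate 3, and 0 to 1 with 1 library left out. Called ubiquitin editors and brakes numbered 10 with the length and GC offset. The labels do not say that replicate numbers mark a shared litter or batch. Deviations of same-numbered libraries correlated at -0.308 to 0.0511. With so few libraries these correlations cannot decide whether the numbers pair the mice. With the replicate block 6432 genes were called. Genes with few counts at 12 weeks, such as Bcl3, are limited by depth.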
